A study of Homo sapiens with 5 samples.

Results

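The centromeres of human chromosomes 1, 3, 5, 6, 7, 10, 12, 16 and 19 are built on alpha-satellite arrays of suprachromosomal family 1, a group in which A-type and B-type monomers alternate along the repeat. The deposited table lists 1559 alpha-satellite regions of the T2T-CHM13 genome, and 568 of them lie on these 9 chromosomes and span at least 1 kb from start to end. Chromosome and length alone decided membership. The 568 regions covered 34.6 Mb, with lengths from 1024 bp to 500 kb and a median of 9.56 kb, and 85 shorter regions of the same chromosomes were left out. The members nearest to the limit (1024, 1030 and 1048 bp) had 0 reads over all libraries, as did the longest regions left out (894, 894 and 977 bp).

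Alpha satellite is the tandem repeat on which the human kinetochore assembles, and RNA polymerase II transcribes it at low levels. B-type monomers can carry the CENP-B box, the binding site of the centromere protein CENP-B. Chromosomes 1, 5 and 19 carry nearly the same higher-order repeat, so a read placed on 1 of them may come from another, whereas the other 6 chromosomes have repeats that can mostly be told apart. Flanks of a centromere can also hold older alpha satellite of other families. Array classes are not among the table's columns. The family label therefore rests on the chromosome and could not be checked region by region, and no T2T-CHM13 sequence was used here.

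The cells were RPE1, a telomerase-immortalised human line from retinal pigment epithelium, of wild-type genotype in each group. RNA made during a pulse of 5-ethynyl uridine (EU), a uridine analogue that can be tagged with biotin, was captured from about 2000000 cells. There were 5 libraries, 1 from an asynchronous culture and 1 each from cells labelled G1, S, G2 and M phase. The sources used here do not say how the stages were obtained. Below, runs of 5 values follow the order asynchronous, G1, S, G2, M. With 1 library per group there is no spread between replicates and no test between stages. Values in brackets after a ratio are exact 95% intervals for counting error only. They treat each read as independent, which PCR copies of a molecule are not, so they may be too narrow. Every ratio to the asynchronous culture shares that single library.

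The libraries held 27848516 to 49371478 reads, of which 1257, 1326, 1266, 1623 and 1603 fell in the members. These made up 13.3% of all alpha-satellite reads in the asynchronous culture (exact binomial interval 12.6 to 14.0) and ranged from 11.8% in S (11.2 to 12.4) to 20.1% in M (19.22 to 20.99), with 15.8% for G1 and 14.9% for G2. No read fell in 385 of the 568 regions (67.8%) in any library, and 56 had reads in each library. Read numbers were even in 52.3% of the regions with reads in the asynchronous culture and in 70.8% in M, where 35 regions had exactly 2 reads and 4 had exactly 1. Both mates of a pair may therefore have been counted, and each interval was computed a further time after dividing reads by 2. The part of this in the M values was not tested.

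Summed over the 568 regions, the level was 39.6, 47.6, 33.2, 32.9 and 49.6 reads per 1000000 library reads (RPM). G1 and M were the high libraries, S and G2 the low ones. The ratio to the asynchronous culture was 1.20 (1.11 to 1.30) for G1, 0.840 (0.776 to 0.909) for S, 0.831 (0.771 to 0.895) for G2 and 1.25 (1.16 to 1.35) for M. The 778 regions from 1 kb on the other chromosomes had ratios of 0.984, 0.951, 0.706 and 0.753 for the same stages. Set against those, the members' ratio was 1.66 (1.53 to 1.81) times as high in M. Over regions of at least 200 kb alone the same contrast was 1.37 (1.22 to 1.55) in M, and it turned to 0.749 (0.616 to 0.912) when chromosomes 13 and 21 were left out of the comparison set. Weighting each region alike (mean RPKM, reads per kilobase and per 1000000 library reads) in place of summing reads turned the members' G2 log2 ratio from -0.27 to 0.35.

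Chromosomes 1, 5 and 19, with 200 regions and 43.9% of the covered length, held 88.0%, 87.3%, 87.8%, 82.7% and 81.0% of the members' reads. Their level was 34.8, 41.5, 29.2, 27.2 and 40.2 RPM. The other 6 chromosomes, with 368 regions, stood at 4.75, 6.07, 4.04, 5.67 and 9.44 RPM, so that their highest library was M and their lowest S. In M the log2 ratio to the asynchronous culture was 0.21 (0.09 to 0.32) for chromosomes 1, 5 and 19 and 0.99 (0.70 to 1.28) for the other 6. In G2 it was -0.36 (-0.47 to -0.24) and 0.25 (-0.04 to 0.55), respectively.

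The log2 difference between the shared-repeat chromosomes and the other 6 was -0.10 (-0.45 to 0.25) for G1 and -0.02 (-0.38 to 0.34) for S, both within counting error. It was -0.61 (-0.93 to -0.30) for G2 and -0.78 (-1.10 to -0.47) for M, with the other 6 chromosomes higher relative to the asynchronous culture. The G2 difference came with 1 region of chromosome 10 (43199274 to 43200500), without which it was 0.15 (-0.24 to 0.53). In M it was -0.62 (-0.97 to -0.28) without that region.

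The regions were of 3 kinds, a grouping made after their reads were seen. Most of the length lay in 63 windows of at least 200 kb (27.6 Mb, 79.6% of the covered length), which the table cuts mostly at multiples of 500 kb. Dense blocks were regions under 200 kb, joined where at most 10 kb apart, with at least 100 reads over the 5 libraries. There were 4 of them, on chromosomes 1, 5, 10 and 19, with 17 regions and 213 kb (0.616% of the length). Averaged over the libraries the dense blocks held 55.1% of the members' reads, the windows 39.0% and the other 488 regions 5.85%.

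**Figure D1:**
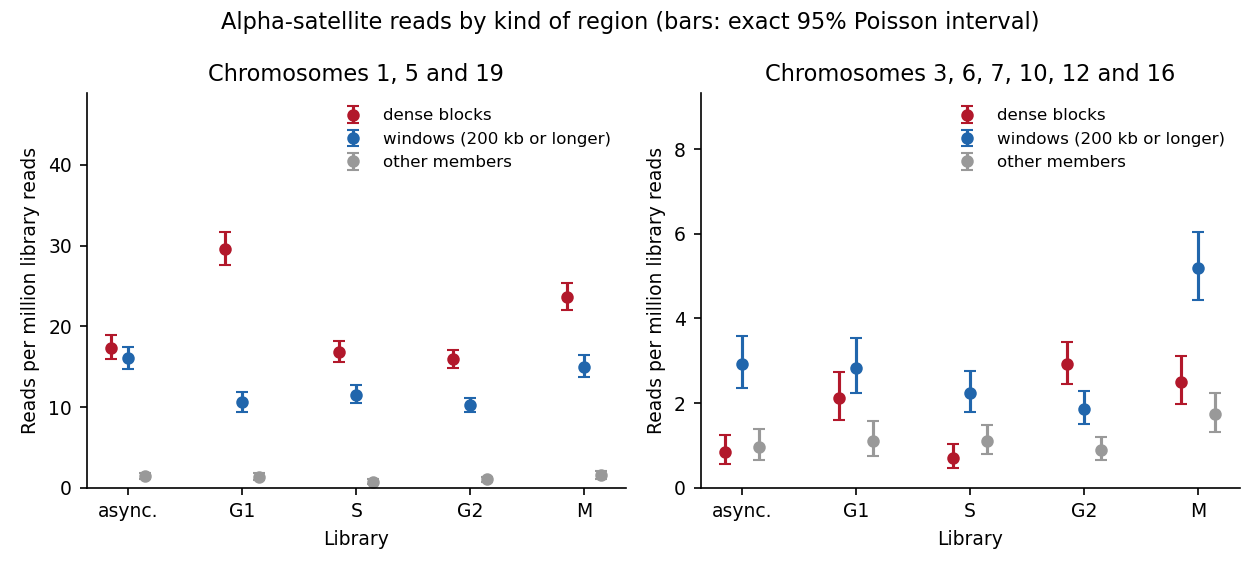
Reads per 1000000 library reads (y axis) in each library (x axis) for dense blocks (red), windows of at least 200 kb (blue) and other members (grey), on chromosomes 1, 5 and 19 (left) and on the other 6 (right, own scale), with exact 95% Poisson intervals as bars. On the left the dense blocks were highest in G1 (29.6) and the windows in the asynchronous culture (16.03); on the right the windows were highest in M (5.20).

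On chromosomes 1, 5 and 19 the blocks and the windows parted in G1. The 3 dense blocks together stood at 17.4, 29.6, 16.9, 15.9 and 23.6 RPM, and the 29 windows at 16.03, 10.6, 11.6, 10.2 and 15.01 RPM. G1 was thus 1.70 (1.53 to 1.90) times the asynchronous level in the blocks and 0.661 (0.571 to 0.764) times in the windows. The ratio of these ratios was 2.58 (2.15 to 3.10), with an interval of 1.97 to 3.33 when reads were divided by 2. It was smaller in the other stages, at 1.35 (1.13 to 1.60) for S, 1.43 (1.21 to 1.69) for G2 and 1.45 (1.22 to 1.72) for M. With windows counted from 100 kb, which moves the longest region of the chromosome 1 block among them, the windows' G1 log2 ratio was -0.092 in place of -0.60. Since the blocks were picked for their reads in these libraries, their levels are a description.

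The chromosome 1 block (121619171 to 121788213, 4 regions, all in complement orientation) opens the 5.20 Mb tract of that chromosome (121619171 to 126824125). A tract is a run of regions at most 100 kb apart. The block had 233, 444, 352, 453 and 345 reads, or 7.34, 15.9, 9.24, 9.18 and 10.7 RPM. G1 was the highest library, at 2.17 (1.85 to 2.56) times the asynchronous level, and 4 of 4 regions were higher there. M was 1.46 (1.23 to 1.73) times and G2 1.25 (1.07 to 1.47) times, the latter with an interval of 0.996 to 1.58 once reads were divided by 2.

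Within the block the regions shared the direction in G1 but not the size. The region at 121634908 to 121677288 had 59, 163, 105, 170 and 128 reads, a log2 ratio of 1.64 for G1 and 1.08 for M on the log2(RPM + 0.03) scale used for single regions. The longer region next to it (121677600 to 121788213) had 133, 230, 200, 192 and 146 reads, with 0.97 for G1 and 0.11 for M. The outermost region (121619171 to 121630595) had 37, 43, 45, 79 and 56 reads and its highest log2 ratio, 0.56, in M.

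The 10 windows of chromosome 1 that follow the block lay lower in G1. Together they had 340, 173, 287, 342 and 308 reads, or 10.7, 6.21, 7.54, 6.93 and 9.53 RPM. All 10 were below the asynchronous level in G1, with ratios from 0.143 to 0.893, and the sum was at 0.580 (0.480 to 0.699). All 10 were also below it in S, with ratios from 0.586 to 0.903, and 9 of 10 in G2. In M 5 were above and 5 below, and the sum was at 0.890 (0.761 to 1.04). The G1 ratio to the asynchronous culture was 3.75 (2.92 to 4.81) times as high in the chromosome 1 block as in its windows (2.65 to 5.41 with reads divided by 2).

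The low G1 level was uneven among the windows. The window at 123500001 to 123999991 had 24, 3, 26, 24 and 28 reads and the one before it (123000005 to 123499992) 28, 4, 22, 17 and 15. The next window (124000001 to 124500000) had 56, 43, 59, 58 and 42, the most of the chromosome's windows over the libraries. The longest region of chromosome 1, the window at 125000001 to 125500000, had 49, 31, 37, 51 and 51. Across the 10 windows the highest exceeded the lowest 14.3-fold in G1, and between 3.40-fold (M) and 4.21-fold (S) in the other libraries. The lowest window in G1 had 3 reads. How reads with several matches were placed is unstated, so the position of a read within the array is not established. Both orientations were low in G1, with 6 plus windows at 0.556 (0.431 to 0.713) and 4 complement windows at 0.614 (0.459 to 0.816).

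**Figure D2:**
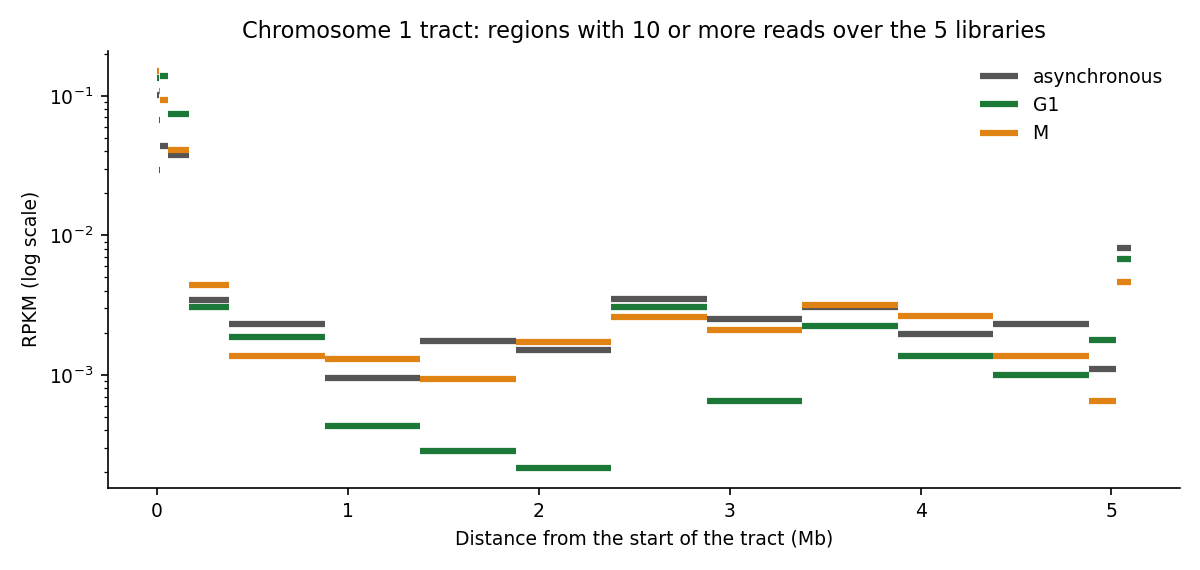
RPKM on a log scale (y axis) along the chromosome 1 tract, as distance from its start in Mb (x axis), for regions with at least 10 reads over the 5 libraries, each drawn as 1 horizontal bar for the asynchronous culture, G1 and M. G1 lies above the asynchronous culture in the dense block at the left and below it in all 10 windows that follow.

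On chromosomes 5 and 19, the other shared-repeat chromosomes, the windows were less clearly low in G1. Whether these windows hold the shared repeat was not checked. The 7 windows of chromosome 5 had 87, 57, 82, 87 and 92 reads and the 12 windows of chromosome 19 had 82, 65, 71, 77 and 85. Together they stood at 0.823 (0.647 to 1.05) in G1, so a difference from the asynchronous culture was not detectable at this depth. The chromosome 1 windows stood at 0.705 (0.519 to 0.959) of that, an interval that reached 0.449 to 1.08 with reads divided by 2. In G2 the ratios were 0.647 (0.555 to 0.754) on chromosome 1, 0.643 (0.472 to 0.876) on chromosome 5 and 0.604 (0.437 to 0.835) on chromosome 19, with overlapping intervals.

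Windows of chromosome 19 were named in part for an extreme ratio in 1 stage, so their differences between libraries are a description, and few reads lie behind each. The longest of chromosome 5 (49000001 to 49500000) had 35, 27, 32, 29 and 33 reads, the most of that chromosome's windows. The longest of chromosome 19 named here (29000001 to 29500000) had 16, 13, 13, 24 and 14. On chromosome 19 the window at 26000001 to 26500000 had 14, 14, 5, 3 and 15 reads. That at 28500001 to 29000000 had 11, 11, 2, 9 and 16, and that at 29500001 to 29770442 had 13, 6, 19, 12 and 4. Near the far end of the chromosome 1 tract, a shorter region (126647813 to 126721767) was named for its low S ratio and had 19, 14, 3, 9 and 11 reads.

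The dense block of chromosome 5 (23993117 to 24013246, 5 regions, 18.3 kb, plus orientation) lies far from that chromosome's long tract (46161731 to 49596649). It had 174, 212, 159, 126 and 210 reads, or 0.300, 0.417, 0.228, 0.140 and 0.356 RPKM. G2 was its low library, at 0.466 (0.367 to 0.589) times the asynchronous level, and 5 of 5 regions were lower there. In G1 5 of 5 were higher, and the block was at 1.39 (1.13 to 1.71). M stood 2.55 (2.03 to 3.20) times the G2 level.

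Of its regions, that at 24009319 to 24013246 had 46, 46, 55, 31 and 49 reads and that at 24001140 to 24005576 had 50, 53, 27, 32 and 41. Their neighbours at 24005618 to 24009239 and 23995270 to 23999704 had 35, 53, 31, 29 and 56 and 36, 42, 32, 32 and 43. In RPM, G2 was the lowest library for each of these regions and for the small first one (23993117 to 23994969), which had 7, 18, 14, 2 and 21.

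The chromosome 19 block (30220115 to 30261063, 7 regions, 25.3 kb, complement orientation) closes the tract of that chromosome (24353180 to 30261063). It had 145, 169, 132, 207 and 208 reads, or 0.181, 0.240, 0.137, 0.166 and 0.255 RPKM, highest in M and lowest in S. M was 1.41 (1.14 to 1.76) times the asynchronous level, and G1 1.33 (1.06 to 1.67) times, with an interval of 0.960 to 1.84 when reads were divided by 2. The last region of the block (30258809 to 30261063) had 10, 24, 39, 51 and 45 reads and exceeded the asynchronous level in each stage. Its neighbour (30255579 to 30258772) had 53, 53, 35, 52 and 43, and the region at 30239721 to 30246040 had 40, 47, 28, 56 and 60. In G2 only that last region (30258809 to 30261063) was higher than the asynchronous culture, 5 were lower, and 1 had no read in any library. In M 4 were higher and 2 lower. The block's G2 and M ratios lean in part on the last region, and sums without it were not made.

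The 3 blocks did not move as one. In G2, relative to the asynchronous culture, the chromosome 1 block stood 2.68 (2.01 to 3.58) times as high as the chromosome 5 block, and the chromosome 19 block 1.97 (1.43 to 2.73) times. The chromosome 19 value leans in part on that block's last region, its only region above the asynchronous level in G2. In G1, again relative to the asynchronous culture, the chromosome 1 block stood 1.63 (1.23 to 2.17) times as high as the chromosome 19 block. It stood 1.56 (1.20 to 2.04) times as high as the chromosome 5 block. In M the same ratios were 1.03 (0.781 to 1.36) and 1.23 (0.937 to 1.61), within counting error. Per kilobase the chromosome 1 block exceeded the windows of its chromosome 19.1-fold in the asynchronous culture and 71.7-fold in G1.

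**Figure D3:**
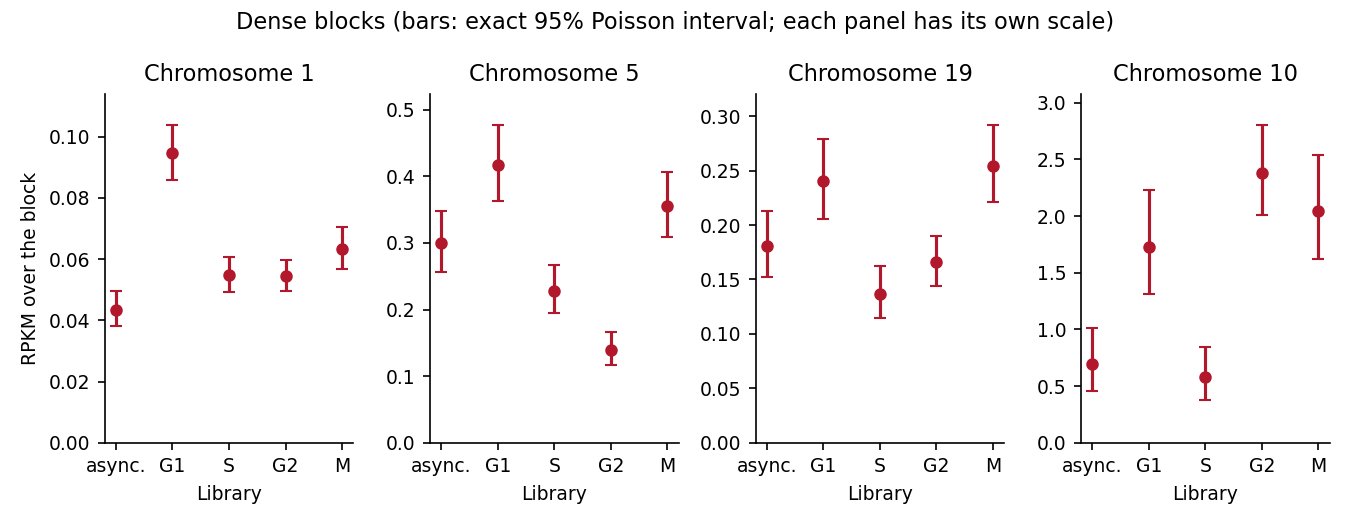
RPKM over each dense block (y axis, own scale per panel) in each library (x axis), for chromosomes 1, 5, 19 and 10, with exact 95% Poisson intervals as bars. The chromosome 1 block was highest in G1, the chromosome 5 block lowest in G2 and the chromosome 10 block highest in G2.

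Among the other 6 chromosomes, chromosome 10 had the single dense block, 1 region of 1.23 kb in plus orientation (43199274 to 43200500), outside that chromosome's long tract. It had 27, 59, 27, 144 and 81 reads, or 0.693, 1.73, 0.578, 2.38 and 2.04 RPKM. G2 was 3.43 (2.26 to 5.39) times the asynchronous level, M 2.95 (1.89 to 4.74) times and G1 2.49 (1.56 to 4.09) times, while S was at 0.834 (0.471 to 1.48). The rest of chromosome 10, which is its long tract (39068404 to 42061815), had 14, 2, 11, 9 and 35 reads and was low in G1 and highest in M. Its 5 windows had 12, 2, 7, 7 and 25, so M was 2.05 (0.991 to 4.47) times the asynchronous level and 5.46 (2.29 to 14.9) times G2. The window at 41500001 to 41932221 had 6, 0, 4, 1 and 3 reads and the longest (40500001 to 40999999) had 1, 0, 0, 4 and 8.

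Chromosomes 6 and 7 had the largest ratios of M to the asynchronous culture among the 9 chromosomes. The 6 windows of chromosome 6 had 0, 2, 8, 12 and 30 reads. For the count of 0 in the asynchronous culture the exact Poisson interval reached 0.116 RPM. With a set floor of 3 reads over these windows (0.0945 RPM) in place of 0, M was 9.83-fold higher. The exact interval of the ratio began at 7.51 (3.53 with reads divided by 2). The 8 windows of chromosome 7 had 2, 8, 13, 19 and 30 reads, with M at 14.7 (3.74 to 127) times the asynchronous level. In the windows of both chromosomes the asynchronous culture was the lowest library and M the highest. Together these 14 windows stood at 0.0630, 0.359, 0.551, 0.628 and 1.86 RPM, and M was 2.96 (1.89 to 4.72) times G2.

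Outside its windows, chromosome 6 had 3, 0, 2, 1 and 14 reads. Its windows named here lie at the start of its tract (58243295 to 61413503). The first (58285613 to 58500000) had 0, 0, 4, 8 and 10 reads and the next (58500001 to 59000000) 0, 2, 1, 2 and 6. The longest named here (59000001 to 59500000) had 0, 0, 0, 2 and 6. In the tract of chromosome 7 (60044489 to 64188432), the window at 61500001 to 61999999 had 0, 4, 6, 2 and 6 and the longest named here (62000001 to 62500000) 0, 2, 1, 6 and 6. None of these 5 windows had a read in the asynchronous culture, and in each of them no library had more reads than M. Regions were named in part for an extreme ratio to the asynchronous culture, so this shared pattern is a description. Over the 34 windows of the 6 chromosomes, read numbers were even in 73.7%, 72.2%, 60.9%, 75.0% and 80.6% of those with reads, compared with 45.8%, 48.0%, 50.0%, 38.5% and 57.7% on chromosomes 1, 5 and 19. The part of mates counted apart was not tested.

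Windows of chromosomes 3, 12 and 16 were near the asynchronous level in M, with wide intervals, and low in G2. Those of chromosome 12 had 45, 48, 28, 36 and 43 reads, with M at 0.939 (0.604 to 1.46) and G2 at 0.515 (0.323 to 0.816). Those of chromosome 3 had 20, 11, 19, 13 and 21, with M at 1.03 (0.532 to 2.01) and G2 at 0.418 (0.191 to 0.883). Those of chromosome 16 had 14, 8, 10, 5 and 19, with M at 1.33 (0.634 to 2.88) and G2 at 0.230 (0.0648 to 0.675). For chromosomes 3 and 16 the G2 interval took in 1 once reads were divided by 2 (0.130 to 1.24 and 0.0314 to 1.09).

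Their single windows held few reads, and the full order of the 5 libraries within one is not resolved at this depth. On chromosome 3 the longest (92000003 to 92500000) had 12, 5, 8, 2 and 11, while that at 91000001 to 91480350, at the end of the long tract (90339379 to 91480350), had 0, 1, 6, 4 and 2. On chromosome 12, whose tract spans 34284894 to 37369867, the longest (35000001 to 35499999) had 7, 10, 9, 2 and 14 and that at 36500002 to 36999999 had 8, 5, 3, 8 and 1. On chromosome 16, with a tract from 35677622 to 37867244, the longest (37000001 to 37500000) had 1, 0, 4, 2 and 4 and its neighbour (37500001 to 37851967) 5, 4, 0, 0 and 4.

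From G2 to M the windows were higher on 9 of 9 chromosomes, each with an interval above 1, and 7 kept it with reads divided by 2. The ratio of M to G2 was 1.46 (1.29 to 1.66) over the windows of chromosomes 1, 5 and 19 and 2.79 (2.15 to 3.64) over those of the other 6. The 86 windows outside the family had a ratio of 1.05 (1.01 to 1.09). Of their 5286 reads in the asynchronous culture, 266 remained without chromosomes 13 and 21, which were left out for that reason after the reads were seen. The other 81 windows had a ratio of 1.95 (1.67 to 2.27). Against the asynchronous culture the windows of 7 of 9 chromosomes were lower in G2, 6 with an interval below 1 and 2 with reads divided by 2. Those of chromosomes 6 and 7 were higher.

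**Figure D4:**
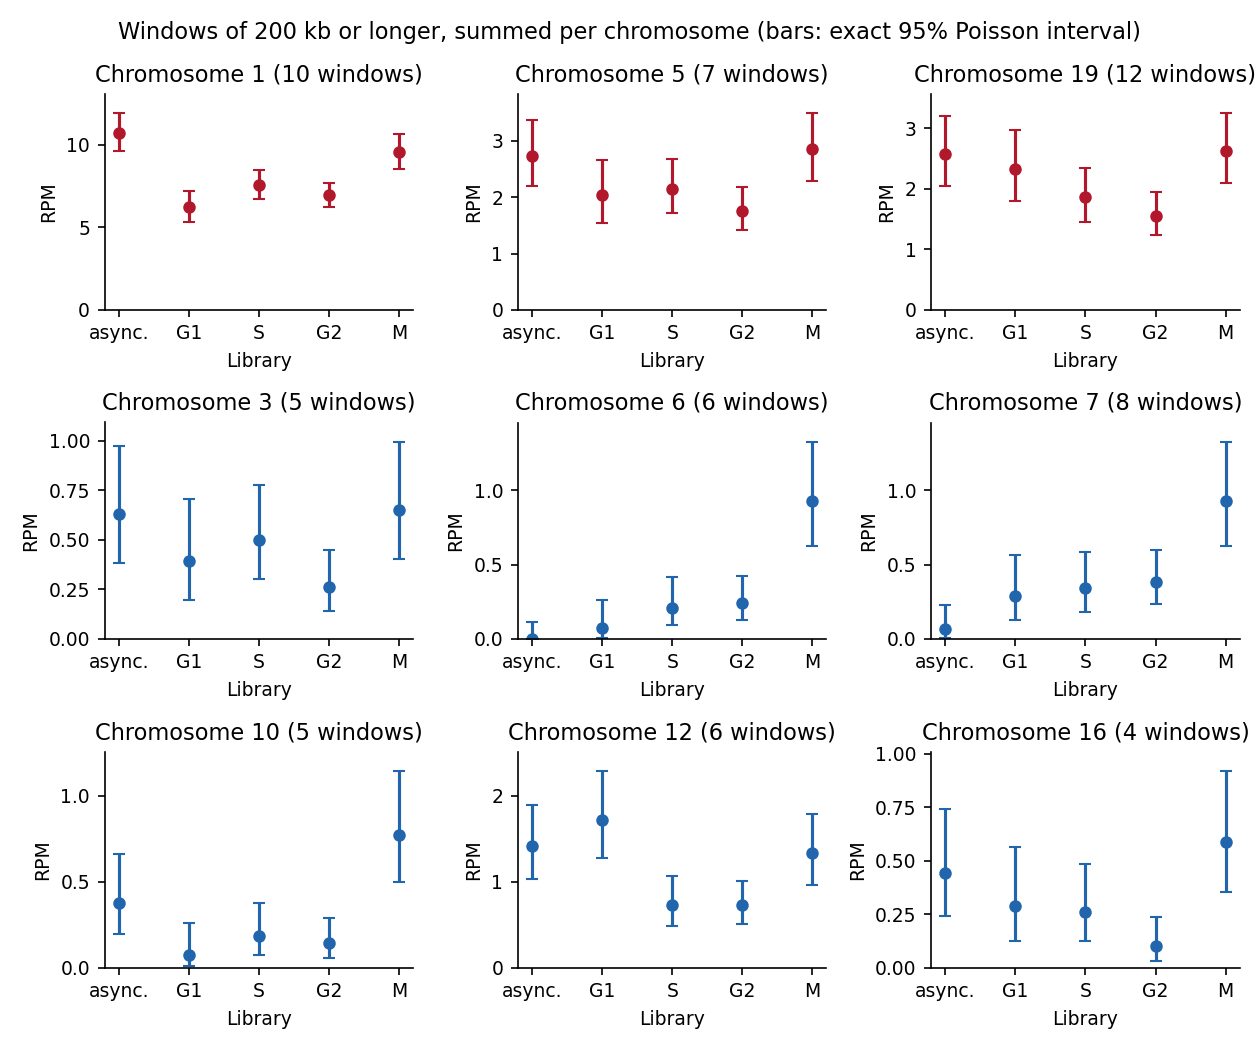
Reads per 1000000 library reads (y axis, own scale per panel) summed over the windows of at least 200 kb of each chromosome, by library (x axis), with exact 95% Poisson intervals as bars. Panels cover chromosomes 1, 5 and 19 and the other 6; M lies above G2 in each, and chromosomes 6 and 7 go from near 0 in the asynchronous culture to 0.928 in M.

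Per kilobase the windows of chromosomes 1, 5 and 19 exceeded those of the other 6 by 6.52-fold in the asynchronous culture (5.22 to 8.22) and by 6.55-fold in G2 (5.24 to 8.27). The lowest value was that of M, at 3.44-fold (2.88 to 4.12). Relative to the asynchronous culture, the windows of chromosomes 1, 5 and 19 stood at 0.527 (0.393 to 0.705) of the others in M. Without chromosomes 6 and 7 this was 0.803 (0.584 to 1.10), an interval that holds 1. Those chromosomes had the largest M ratios and were left out after the reads were seen, so the value had to rise. In G1, with all 6 chromosomes kept, the ratio was 0.682 (0.483 to 0.966), or 0.408 to 1.10 with reads divided by 2. The 81 windows outside the family that are not on chromosomes 13 and 21 gave a further comparison, again relative to the asynchronous culture. In M the family's 63 windows stood at 0.749 (0.616 to 0.912) of them. Those of chromosomes 1, 5 and 19 stood at 0.658 (0.536 to 0.808) and those of the other 6 at 1.25 (0.918 to 1.70). Without chromosomes 6 and 7 the last value was 0.820 (0.588 to 1.14), and it had to fall for the reason given above.

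Whole chromosomes mix blocks and windows. Chromosome 1 had 599, 638, 651, 816 and 667 reads and stood at 1.09 (0.979 to 1.22) in M, an interval that holds 1. Chromosome 5 had 269, 280, 251, 225 and 325 reads and was lowest in G2, at 0.538 (0.449 to 0.645). Chromosome 19 had 238, 239, 210, 302 and 306 and was lowest in S, at 0.736 (0.608 to 0.890). Chromosome 1 was also lowest in G2, at 0.876 (0.788 to 0.975). On chromosomes 1 and 19 the intervals of S and G2 overlapped, so their order is not resolved. Of the 9 chromosomes, each taken whole, 7 were above the asynchronous level in G1 and 8 in M, against 2 in S and 3 in G2. Fewer were resolved by their intervals. For M 5 chromosomes had an interval above 1 and for G1 3, which fell to 3 and 1 with reads divided by 2. For G2 2 had one with either count, and for S 0. Intervals below 1 were found for 5 chromosomes with G2 and 3 with S, in each case 2 with reads divided by 2, and for 0 with M or G1. The G1 tally of whole chromosomes does not describe their windows. Windows were higher in G1 on 3 chromosomes and lower on 6. Their interval lay above 1 for 0 chromosomes and below 1 for 2, or 1 with reads divided by 2. Summed over all windows of the family, G1 was at 0.709 (0.621 to 0.807) times the asynchronous level.

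**Figure D5:**
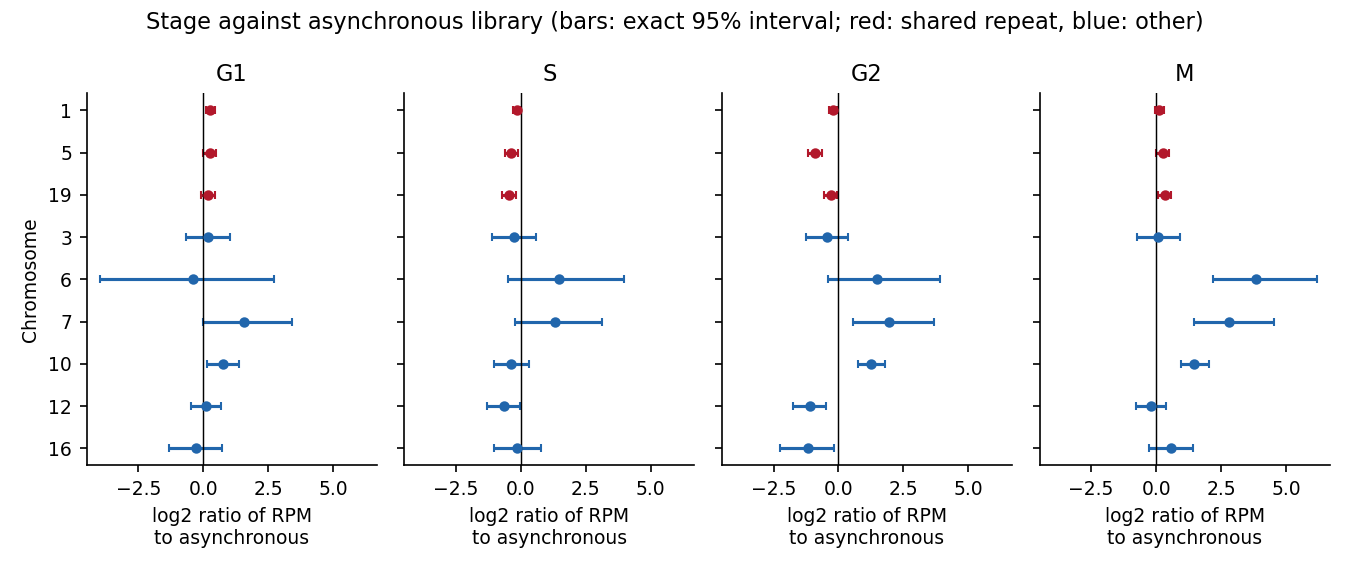
Log2 ratio of RPM to the asynchronous culture (x axis) for each chromosome (y axis), with 1 panel per stage and exact 95% intervals as bars. Chromosomes 1, 5 and 19 lie within 1 log2 unit of 0, whereas chromosomes 6 and 7 reach 3.85 and 2.82 in M with wide intervals.

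Single regions were compared where they had at least 10 reads over the 5 libraries, which 66 of the 568 did (42 on chromosomes 1, 5 and 19 and 24 on the other 6). A region that passed only through the library in which it is high had to differ, so the counts are descriptions. In G1 11 members were at least 2-fold above the asynchronous level and 12 at least 2-fold below, compared with 12% and 27.1% of the 166 such regions of the whole table. These were 16.7% and 18.2% of the 66. In S 5 were above and 12 below (12.7% and 21.7% in the whole table). In G2 9 were above and 19 below (12.7% and 33.1%), and in M 14 and 2 (22.9% and 14.5%). The median log2 ratio of the 66 was 0.18 for M, beside 0.0077 over the 166, and -0.56 for G2, the same as over the 166.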

How the data were processed

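EU-labelled RNA of RPE1 cells was captured with the Click-iT kit and sequenced as pairs of 150 nt, per the labels' protocols. The values deposited by the authors are RPKM for 1559 alpha-satellite regions in 5 libraries. Per the submitters' processing notes, fastp, Bowtie2, deepTools and bedtools were used with the builds hs1 and T2T-CHM13. How reads with several matches were placed is unstated in the sources used here, and in near-identical repeats it sets the array a read counts for.

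RPKM multiplied by region length gave whole reads for 100% of values (within 1e-06 reads), and with them the library totals. Reads were summed over sets of regions. Levels have exact Poisson intervals, ratios exact conditional (Clopper-Pearson) intervals and ratios of ratios exact conditional odds-ratio intervals. Single-region counts left out regions under 10 reads and added 0.03 RPM before log2; sums include all members. Calculations used scipy 1.17.1, pandas 2.3.3, numpy 2.4.6 and matplotlib 3.10.9 under Python 3.11.15, and were tested on simulated data.

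Named regions were the 12 with the largest mean share of the members' reads, the 3 highest and 3 lowest ratios per stage, and the longest region and tract of each chromosome. Others were named within a block and chosen after their values were seen. The members, lists and rule were chosen with earlier results of these data known. Windows, dense blocks and their alternatives were chosen after seeing the data.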

Additional observations from a re-analysis of the deposited data

Results flagged for a closer look

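In sums over all members, both sets of chromosomes, single chromosomes, windows and dense blocks, a pair of stages was looked for on opposite sides of the asynchronous culture, with neither interval holding a ratio of 1 after reads were divided by 2. There were 4 such sums, given here as the log2 difference between the highest and the lowest such stage. Over all members M and G2 differed by 0.59, and over chromosomes 1, 5 and 19 G1 and G2 differed by 0.61; in both, G1 and M lay above the asynchronous culture and S and G2 below. Over the windows of chromosomes 3, 6, 7, 10, 12 and 16 the log2 ratio was 0.83 for M and -0.65 for G2, which makes a difference of 1.48. Over the dense block of chromosome 5 it was 0.47 for G1 and -1.10 for G2, which makes a difference of 1.58. The sums share regions, and with 1 library per stage these differences were not tested.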

How the results depend on the processing

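No paired analysis was possible because each stage has 1 library. Reads number few per region, multiple matches cannot be traced, and the intervals hold no spread between cultures. Of 287 recomputed sums, differences and counts, 218 stayed within the limits set for them, as did all 264 recomputed values of single named regions. The 218 include ratios recomputed after all reads were divided by the same number. Such a division leaves a ratio as it was, so these had to stay and say nothing about stability. Where the reported interval spanned both signs, a value inside it was counted as kept even if its sign turned. The G1 difference between both sets of chromosomes, for example, went from -0.097 to 0.23 with regions from 10 kb and was counted as kept. For values past their limits the cause was not tested, except where leaving out a region or chromosome shows it. Values are log2 ratios unless counts are named.

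For all members, regions from 10 kb gave 0.14 for G1, and leaving out the region with most reads 0.15. Weighting regions alike gave 0.73 for G1, 0.35 for G2 and 0.78 for M. Against G1 as reference S was -0.52, G2 -0.53 and M 0.059. G2 was -0.14 without chromosome 5, and M 0.48 without chromosome 1. For chromosomes 1, 5 and 19, G1 was 0.12 without the region with most reads, S -0.40 and G2 -0.58 without chromosome 1, and G2 -0.22 without chromosome 5. For the other 6, regions from 10 kb gave -0.064 for G1 and -0.51 for G2, and without the region with most reads these were 0.017 and -0.50. In G2 these turned the sign, as leaving out chromosome 10 did; their G2 was -0.43 without chromosome 10 and 0.68 without 12, and their M 1.38 without 12. The difference between both sets was 0.36 for G1 in long tracts. For G2 it was 0.22 from 10 kb, 0.11 without the top region of each set and 0.30 in long tracts, each with the sign turned.

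For windows of chromosomes 1, 5 and 19, a limit of 100 kb gave -0.092 for G1 and -0.27 for S, and leaving out chromosome 1 gave -0.28 for G1. For windows of the other 6, M was 1.36 without chromosome 12, and without chromosomes 6 and 7 it was 0.22, with G2 at -1.21. The difference between both sets of windows without chromosomes 6 and 7 was 0.57 for G2 and -0.32 for M.

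Counts of regions past 2-fold moved by over 1.5 times as follows. Adding 0.1 RPM gave 5 higher and 6 lower for G1, 6 lower for S, and 4 higher for G2. Adding 0.1 RPKM gave 3 higher and 0 lower for G1, 1 higher and 0 lower for S, 2 higher and 0 lower for G2, and 3 higher and 0 lower for M. A minimum of 20 reads gave 6 higher and 7 lower for G1, 2 higher for S, 3 higher for G2, and 7 higher for M. A minimum of 5 reads gave 19 lower for G1, 8 higher for S, and 24 higher and 5 lower for M. A minimum of 1 read gave 31 higher and 32 lower for G1, 23 higher and 33 lower for S, 33 higher and 35 lower for G2, and 54 higher and 20 lower for M. A 3-fold limit gave 4 higher and 6 lower for G1, 4 lower for S, 5 higher and 9 lower for G2, and 9 higher and 1 lower for M.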
